A study of Homo sapiens with 31 samples.

Results

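Ribosome footprints of untreated EIF4A2 knockout (KO) cells were compared with those of untreated naive cells. The 4 libraries concerned, of 31 in the series, were chosen by their labels alone: 2 libraries of EIF4A2 KO cells and 2 of naive cells, all with the vehicle DMSO. The cells of all groups were HEK293 T-REx, a human embryonic kidney line made to carry inducible transgenes. The series studies the helicase eIF4A1 and the RNA-binding protein LARP1 during inhibition of the kinase complex mTORC1; libraries treated with the mTOR inhibitor PP242 were left out. The 2 DMSO libraries of EIF4A1 KO cells entered the same statistical fit, so that 6 libraries shared 1 estimate of the spread and the knockouts could be compared with each other. The labels give 1 name per genotype and do not say whether a knockout was 1 clone or whether replicates were separate cultures. The p-values therefore measure only the spread between these libraries, which may be technical. A difference between the genotypes and a difference between the cell lines that carry them cannot be told apart. The naive and EIF4A1 KO footprint libraries are listed together in the series, the EIF4A2 KO libraries apart from them with another style of title. No label names a batch, and a batch difference cannot be told apart from the EIF4A2 KO genotype either.

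In ribosome profiling, RNase I removes the RNA outside ribosomes, and the protected fragments (footprints) are sequenced, so footprints on an mRNA follow both its abundance and its translation. eIF4A is an ATP-dependent RNA helicase that, with the cap-binding protein eIF4E and the scaffold eIF4G, forms the complex eIF4F, which prepares the 5′ end of an mRNA for the small ribosomal subunit. EIF4A1 and EIF4A2 encode closely related forms of it. eIF4A1 is usually the more abundant form in proliferating cells, and eIF4A2 has also been linked to the CCR4-NOT deadenylase complex.

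The deposited counts are per Ensembl transcript, and no table at hand pairs these transcripts with genes. No gene is therefore named, the EIF4A2 transcripts could not be looked up as a check of the knockout, and no sequence is shown. After transcripts with equal counts were merged and neighbouring transcripts with nearly parallel counts were reduced to 1, 35499 transcripts remained. They held 4991060 and 5388072 counts in the EIF4A2 KO libraries, 5510071 and 6390350 in the naive libraries, and 2748706 and 2515013 in the EIF4A1 KO libraries. The 10 most abundant transcripts took between 4.32% and 4.58% of the counts in the 4 EIF4A2 KO and naive libraries. Replicates differed by more than sampling noise in every group, with a chi-square per transcript of 1.85 in EIF4A2 KO, 1.83 in naive and 1.38 in EIF4A1 KO cells, and were counted as separate libraries. All changes given are relative to the other transcripts of a library, since nothing in the files measures total translation.

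EIF4A2 KO and naive cells differed by many small changes and few large ones. Of 19844 transcripts tested, 1596 (8.04%) passed an adjusted p of 0.05 (edgeR quasi-likelihood test, Benjamini-Hochberg adjustment), of which 740 (3.73%) were higher and 856 (4.31%) were lower in EIF4A2 KO cells. The median size of the change was 0.44 on the log2 scale among the higher and 0.50 among the lower transcripts. A log2 change under 0.5 in size was found for 428 of the higher and 427 of the lower transcripts. Changes of at least 2-fold numbered 72 among the higher and 138 among the lower, and changes of at least 2 on the log2 scale numbered 7 and 29. The largest falls thus outnumbered the largest rises. The count of calls rested partly on single libraries: it was 785 without naive replicate 2 and 849 without EIF4A2 KO replicate 2. The DESeq2 Wald test, which gave an adjusted p for only 8687 of the 19844 transcripts, called 526, all among the 1596.

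**Figure D1:**
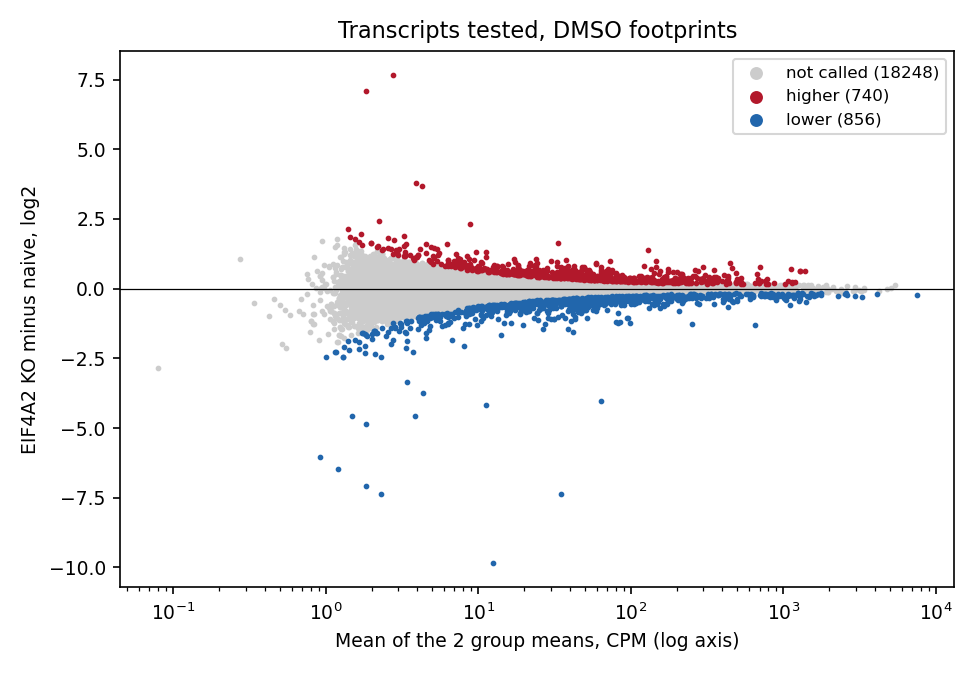
Log2 footprint change (EIF4A2 KO minus naive, vertical axis) against footprint level (mean of the 2 group means in CPM, counts per 1000000 counts of the library, log axis), each point 1 of 19844 tested transcripts. The 740 higher and 856 lower transcripts lie mostly within 1 log2 unit of 0, and the widest scatter is at low levels.

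The share of transcripts called rose with depth. The tested transcripts were split into 5 equal groups by footprint level. In the group with the fewest footprints, 0.831% were called higher and 1.41% lower. In the group with the most, 9.62% were called higher and 10.1% lower. Across the 5 groups the interquartile range of the log2 change narrowed from 0.687 to 0.227. For transcripts with few footprints, small changes were therefore not detectable at this depth. The 2 EIF4A2 KO and naive libraries numbered 1 and the 2 numbered 2 gave separate estimates of the change. Over the 10887 transcripts with a mean of at least 10 CPM these had a Pearson correlation of 0.53 and a Spearman correlation of 0.41, as a description over transcripts that share libraries.

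The 4 transcripts named here were chosen by the size of the fitted change alone, among 1392 called transcripts that reached 10 CPM in either group and whose groups of libraries did not overlap. The largest rise was that of ENST00000367495.4, listed with a counted length of 216. Its footprints were at 15.9 and 13.6 CPM in the EIF4A2 KO libraries, 2.58 and 3.20 CPM in the naive libraries, and 2.89 and 5.11 CPM in the EIF4A1 KO libraries. Both EIF4A2 KO libraries were above all 4 others. The log2 change from naive was 2.33 (SE 0.26, edgeR adjusted p = 1.45e-12).

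The second largest rise was that of ENST00000350763.9, one of the longest transcripts tested with a listed length of 2192. It had 51.0 and 49.9 CPM in the EIF4A2 KO libraries, 16.01 and 16.17 CPM in the naive libraries, and 14.4 and 11.4 CPM in the EIF4A1 KO libraries. The replicates lay close together, and the log2 change was 1.65 (SE 0.14, edgeR adjusted p = 3.92e-20). Neither rising transcript changed detectably in EIF4A1 KO cells, with log2 changes from naive of 0.44 (edgeR adjusted p = 0.495) and -0.31 (edgeR adjusted p = 0.307).

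One of the 2 falls was that of ENST00000398606.9, with a listed length of 201. It had no count in either EIF4A2 KO library, against 129 and 166 counts (23.7 and 26.6 CPM) in the naive libraries. Measured against a floor of 3 counts over the EIF4A2 KO group, its footprints were at least 86.8-fold lower. In the EIF4A1 KO libraries it was also low, at 2.53 and 3.54 CPM, with a log2 change from naive of -3.06 (edgeR adjusted p = 1.12e-16). Its RNA in EIF4A1 KO cells, at 2.97 and 2.13 CPM, was lower than in naive cells, at 36.2 and 35.8 CPM. In the input lysates of cells with tagged eIF4A2 it had 20.3 and 18.3 CPM of RNA, and in those with tagged eIF4A1 72.4 and 70.5 CPM, so the level of this transcript also varied among cells that the labels do not name as knockouts.

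The other fall was that of ENST00000323076.7, with a listed length of 618 and counts shared with 1 other transcript. It had 1 and 3 counts in the EIF4A2 KO libraries, against 359 and 449 in the naive libraries (66.1 and 71.9 CPM). The ratio of the summed, scaled counts was 178-fold, with an exact 95% interval of 69.4 to 656 that covers counting error only. Which of these falls was the larger cannot be told, since the first has only a lower bound. In the EIF4A1 KO libraries it was not reduced but stood at 119 and 104 CPM (log2 change 0.69, edgeR adjusted p = 1.95e-08). Because the libraries come from whole cultures, a loss from every cell and a loss from most cells cannot be told apart. RNA-seq of EIF4A2 KO cells was not analysed here, so for none of these transcripts can a change of RNA and a change of translation be separated.

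**Figure D2:**
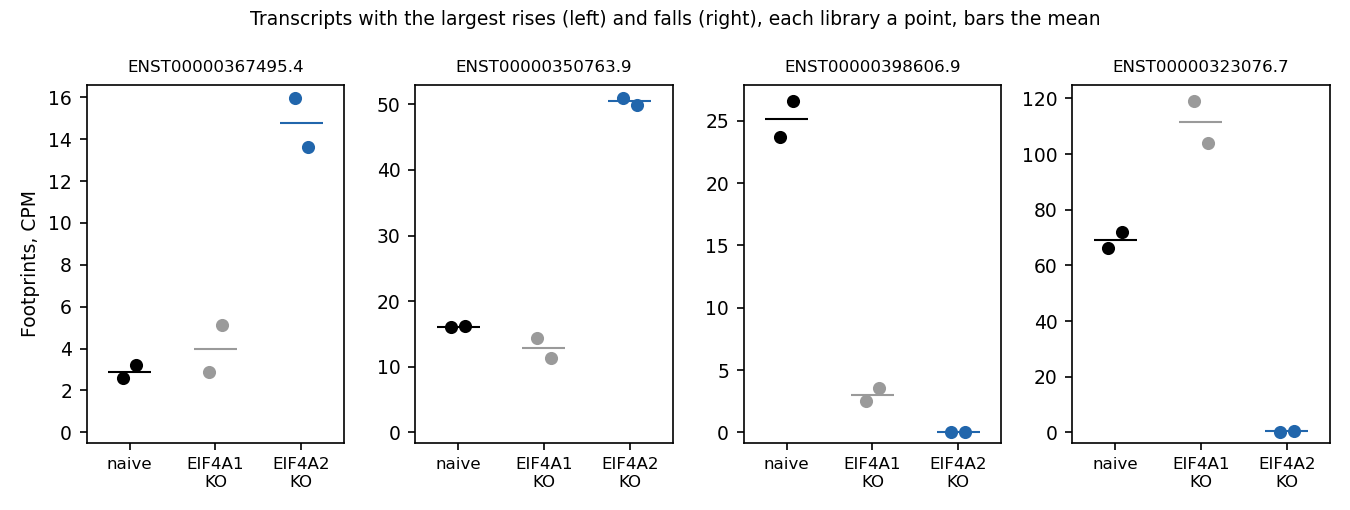
Footprints in CPM (vertical axes, each from 0) of the 2 transcripts with the largest rises and the 2 with the largest fitted falls, for 2 libraries each of naive, EIF4A1 KO and EIF4A2 KO cells; points are libraries and bars their mean. The EIF4A2 KO libraries stand apart from all others in each panel, and only the panel of ENST00000398606.9 also has EIF4A1 KO libraries far from the naive ones on its low side.

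Among the 10 largest rises under the same conditions, the log2 changes ran from 1.07 to 2.33. Among the 10 largest falls they ran from -1.44 downwards. When the knockouts were compared with each other, 7 of these 10 rises and 9 of these 10 falls were also called against EIF4A1 KO cells in the same direction. The other 3 rises and 1 fall were not called between the knockouts. All were chosen by their change in the same EIF4A2 KO libraries, so these counts are no independent test. In the transcripts called in both comparisons the EIF4A2 KO libraries differed from those of both other genotypes. This does not separate genotype from a possible batch.

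The same comparison was made for all called transcripts. Between the knockouts, 4488 transcripts (22.6%) were called, 2300 (11.6%) higher and 2188 (11%) lower in EIF4A2 KO than in EIF4A1 KO cells. Of the 740 transcripts higher than in naive cells, 361 (48.8%) were also higher than in EIF4A1 KO cells, 48 were lower, and 331 were not called. Of the 856 lower ones, 378 (44.2%) were also lower than in EIF4A1 KO cells, 70 were higher, and 408 were not called. Both comparisons use the same EIF4A2 KO libraries, so these shares describe the transcripts and are no independent test. The count between the knockouts was 2659 without EIF4A1 KO replicate 1.

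Changes in EIF4A2 KO cells were not spread evenly over the list of transcripts. The order of transcripts in the files is the authors', and what it follows is not given in the sources used here. Transcripts were taken in that order in windows of 50 tested transcripts, and the median log2 change of each of the 397 windows was computed. The middle 50% of window medians lay between -0.05 and 0.05, and the middle 90% between -0.17 and 0.14. In 22 windows the median was at least 0.25 in size, down in 14 and up in 8, and they formed 9 runs of adjoining windows. The windows were chosen from the same contrast after its values had been seen, so what follows is a description without a test. Neighbouring transcripts may still share reads and are not independent.

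The shift of a window could be looked at in libraries that did not choose it. With only the EIF4A2 KO and naive libraries numbered 1, 20 windows had a median of at least 0.25 in size. In the libraries numbered 2, all 20 of these had the same sign and 18 also passed 0.25, with medians of -0.38 over the 12 falling and 0.30 over the 8 rising windows. Choosing in the libraries numbered 2 gave 28 windows, of which 26 had the same sign and 18 passed 0.25 in the libraries numbered 1. Thus 18 windows passed 0.25 with the same sign in both pairs of libraries. Over all 397 windows the medians of the pairs had a Pearson correlation of 0.62 and a Spearman correlation of 0.30. Both pairs come from the same cell lines and may be technical replicates, so their agreement says nothing about other clones or cultures.

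**Figure D3:**
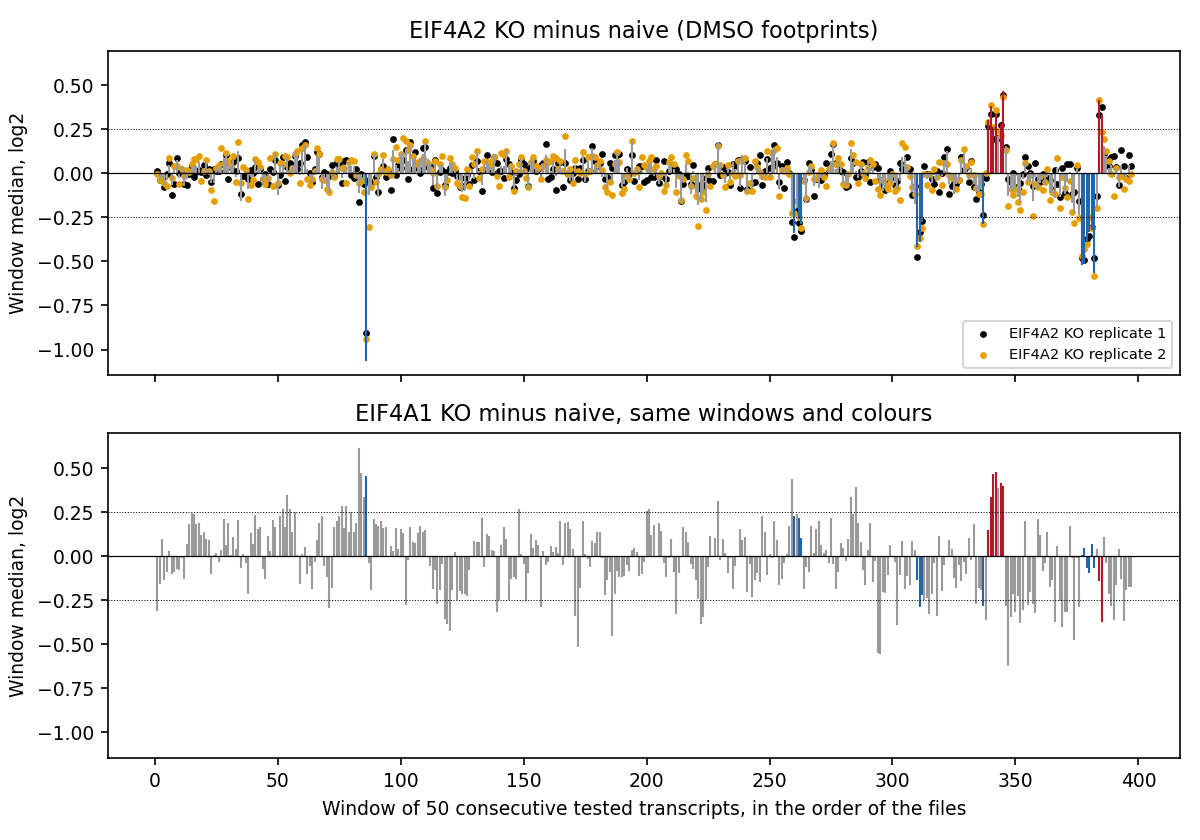
Median log2 footprint change of 397 windows of 50 tested transcripts in file order (horizontal axis), for EIF4A2 KO minus naive (upper panel, points are the single EIF4A2 KO libraries against the naive mean) and EIF4A1 KO minus naive (lower panel), which share the naive libraries. Blue and red mark the 14 falling and 8 rising windows past 0.25 (dotted lines) in EIF4A2 KO cells, and the same windows are coloured in the lower panel.

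The 14 falling windows held 700 tested transcripts, of which 245 were called lower and 1 higher. The 8 rising windows held 400, of which 110 were called higher and 1 lower. Together they held 357 of the 1596 calls (22.4%) on 1100 of the 19844 transcripts tested. In the remaining windows, 1239 of 18744 transcripts (6.61%) were called, 629 higher and 610 lower, with a median log2 change of 0.005. Which direction was the more frequent there turned with the setting: with only the 4 libraries compared it was 617 higher and 629 lower.

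The falling window with the largest shift lay at lines 49567 to 50522 of the files, with a median log2 change of -1.06 over 50 transcripts, all of them below 0. From the middle of that window the fall was followed outwards, transcript by transcript, at 10 CPM or more in either group. It was followed as long as each next transcript fell by more than 0.25 on the log2 scale. It reached from line 49400 to line 50758 and took in 39 transcripts, of which 38 were called lower. That all 39 fell by more than 0.25 was set by this rule. Their median log2 change was -1.08, or 0.474 times the naive level, and the single values ran from -0.36 to -1.44. Summed over these transcripts, footprints were at 1628 and 1586 CPM in the EIF4A2 KO libraries and 3503 and 3371 CPM in the naive libraries. In the EIF4A1 KO libraries the sums were 4368 and 4508 CPM. Near-alike transcripts, such as those at lines 49834 and 49846 (means of 96.7 and 94.1 CPM), may share reads. The sums can therefore count reads more than once and are no footprint total of the run. Both EIF4A2 KO libraries were far below the 4 others, in part because the rule picked transcripts by their fall from naive in these libraries.

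The edges of this run were set by the same rule, which stopped at the first transcript that did not fall by more than 0.25. A step at each edge is therefore no separate result. The 20 transcripts of that level before the run had a median log2 change of -0.10, and the nearest of them stood at 0.15. Of these, 2 were called lower and 3 higher. The 20 after the run had a median of 0.03, and the nearest stood at 0.10, with 0 called lower and 1 higher. Inside the run, counting every tested transcript whatever its level, all 80 were below 0, with 54 called lower and 0 higher. These include the 39 that the rule picked, and may include several transcripts of 1 locus. With neighbours reduced more strictly, at a correlation of 0.7, 49 were tested there, with 39 called lower and 0 higher. In EIF4A1 KO cells, compared with the same naive libraries, 34 of the 39 transcripts were above 0, with a median of 0.41. That rise was not bounded by the run. The 3 windows before line 49567 had EIF4A1 KO footprint medians of 0.61, 0.47 and 0.34. Their medians of EIF4A1 KO against naive RNA, measured in other libraries, were 0.72, 0.46 and 0.60. In the window at lines 49567 to 50522 the EIF4A1 KO median was 0.45 for footprints and 0.54 for RNA. Of the 39 transcripts, 25 were called higher and 3 lower in EIF4A1 KO than in naive footprints. Of all transcripts tested, 22.7% were called in that comparison, 10.9% higher and 11.9% lower. Against EIF4A1 KO cells, 37 of the 39 were called lower in EIF4A2 KO cells, with a median log2 difference of -1.51.

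**Figure D4:**
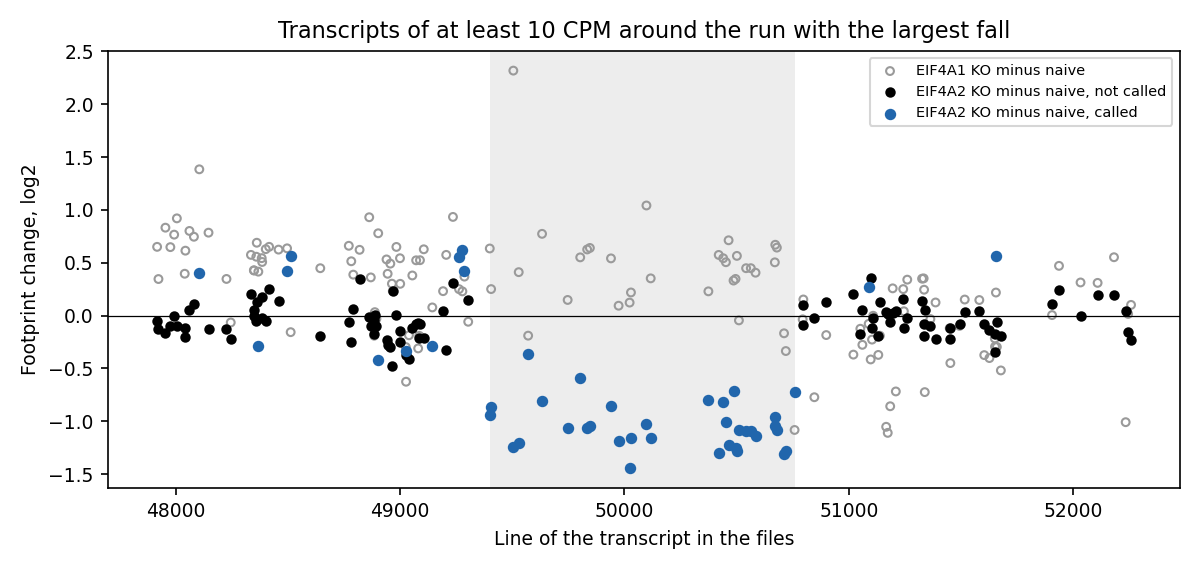
Log2 footprint change of transcripts of at least 10 CPM (vertical axis) by their line in the files (horizontal axis) around the run with the largest fall, shaded from line 49400 to line 50758; filled points are EIF4A2 KO minus naive (blue where called) and open points EIF4A1 KO minus naive. In the shaded span the filled points lie between -0.36 and -1.44, while most open points lie above 0. By rule, the span ends where the next transcript did not fall by more than 0.25.

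The most abundant transcript of the run had 390 and 361 CPM in the EIF4A2 KO libraries, 936 and 920 CPM in the naive libraries, and 796 and 858 CPM in the EIF4A1 KO libraries. Its log2 change was -1.31 (SE 0.06, edgeR adjusted p = 6.19e-44). One transcript of the run, ENST00000323963.10 at line 49505 with a listed length of 398, was singled out after its values were seen. The reason was that it differed from naive in opposite directions in the 2 knockouts. It is not among the 4 chosen by size, and its gene was not looked up. It had 58.3 and 59.2 CPM in the EIF4A2 KO libraries, 153 and 126 CPM in the naive libraries, and 708 and 677 CPM in the EIF4A1 KO libraries. Its log2 change from naive was -1.24 with EIF4A2 knocked out (SE 0.08, edgeR adjusted p = 4.31e-26). With EIF4A1 knocked out it was 2.32 (SE 0.07, edgeR adjusted p = 4.62e-62). The difference between the knockouts was -3.56 on the log2 scale (edgeR adjusted p = 6.53e-77).

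The longest falling run covered 6 windows, lines 214385 to 217685, with 300 tested transcripts and a median log2 change of -0.44 (0.735 times naive). In it 274 transcripts were below 0, and 127 were called lower and 0 higher. The single EIF4A2 KO libraries were at -0.41 and -0.41 against the naive mean. In EIF4A1 KO cells the median change from the same naive libraries was -0.01. A run of 2 rising windows followed at lines 218229 to 219470, with a median of 0.38 over 100 transcripts, 39 called higher and 1 lower. There the EIF4A1 KO median was -0.27, and the median difference between the knockouts was 0.65.

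The other 2 rising runs lay at lines 195738 to 198018 (200 transcripts) and 198644 to 199999 (100 transcripts). Their median log2 changes were 0.32 and 0.35, with 47 and 24 transcripts called higher and 0 lower. Here the EIF4A1 KO libraries stood at a like distance from the naive ones, with medians of 0.38 and 0.41, and the medians between the knockouts were only -0.04 and -0.13. The RNA of EIF4A1 KO cells, measured in other libraries, had medians of 0.39 and 0.49 against naive RNA in these runs. In these spans the medians of both knockouts lay above naive and close to each other.

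The remaining 4 falling runs had medians between -0.27 and -0.38. The run at lines 180877 to 182637 had 150 transcripts, 45 of them called lower, with a median of -0.38, where the EIF4A1 KO median was -0.22. Lines 152002 to 152610 had a median of -0.34, and lines 153414 to 155025 one of -0.27, while the EIF4A1 KO medians there were 0.23 and 0.22. Lines 194779 to 195237 had a median of -0.29, beside -0.28 in EIF4A1 KO cells. The EIF4A2 KO shift was thus joined by a shift of the same sign, of the opposite sign, or of almost no size in EIF4A1 KO cells, depending on the run. DNA copy number was not measured in these libraries, and its part in the runs was not tested.

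Window medians varied less in EIF4A2 KO than in EIF4A1 KO cells, with SDs over the 397 windows of 0.13 and 0.19, both against the same naive libraries. In EIF4A1 KO cells 70 windows passed 0.25, against 22 in EIF4A2 KO cells. No test of this difference was made, since the windows are not replicates and the EIF4A1 KO libraries were less deep.

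Outside the shifted windows, the calls differed by the listed length of the counted region, whose unit the files do not give. That length is below 0 for 313 of the listed transcripts, so what it measures is not certain. Transcripts of at least 10 CPM there numbered 10297, of which 541 were called higher and 495 lower. The median listed length was 460 for the higher, 289 for the lower and 377 for those not called. Split into 5 equal groups by length, 4.61% of the shortest transcripts (7 to 155) were called higher and 6.55% lower. Of the longest transcripts (765 to 8788), 7.38% were called higher and 2.62% lower. The shift itself was small: the median log2 change was -0.01 in the shortest and 0.05 in the longest group, and the Spearman correlation of length and change over the 10297 transcripts was 0.090. In EIF4A1 KO cells, against the same naive libraries, the medians of these groups were -0.14 and 0.20.

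**Figure D5:**
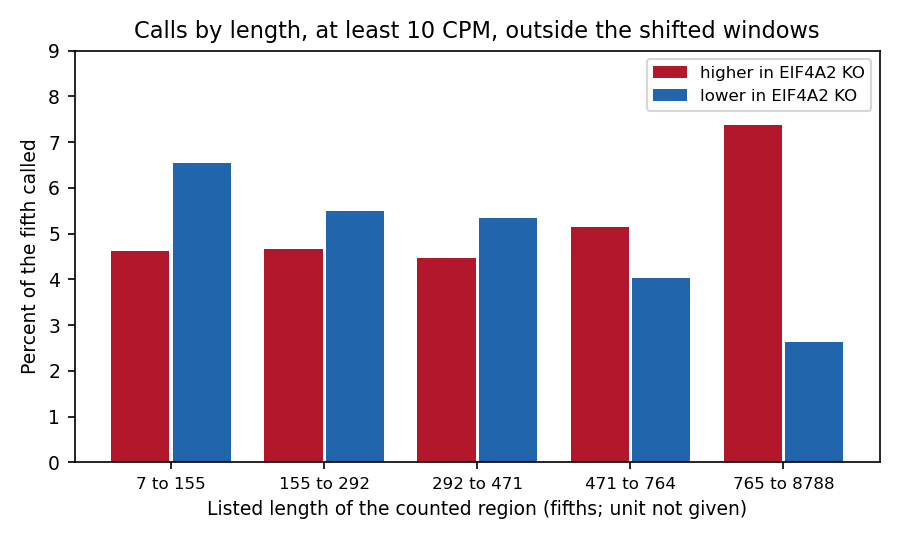
Percent of transcripts called higher (red) and lower (blue) in EIF4A2 KO than in naive cells (vertical axis) in 5 equal groups by the listed length of the counted region (horizontal axis), for 10297 transcripts of at least 10 CPM outside the shifted windows. Lower calls fall from 6.55% in the shortest to 2.62% in the longest group, where higher calls reach 7.38%.

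Other libraries of the series show how the mRNAs of these transcripts were captured with the helicases. In these assays, eIF4A1 or eIF4A2 with a streptavidin-binding peptide (SBP) was pulled down from cells, and the RNA was sequenced beside the input lysate. Enrichment is the log2 of pulldown over input, and no pulldown without the tagged protein was analysed here. For SBP-eIF4A2, the median enrichment was -0.21 for the 541 higher, -0.14 for the 495 lower and -0.06 for the 9261 transcripts not called. Enrichment by SBP-eIF4A2 thus hardly distinguished transcripts whose footprints rose from those whose footprints fell. Over the 10297 transcripts its Spearman correlation with the footprint change was -0.033.

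For SBP-eIF4A1, the median enrichment was -0.44 for the higher, -0.06 for the lower and -0.26 for the transcripts not called. The share with an enrichment above 0 was 30.9% of the higher and 47.9% of the lower transcripts, against 37.2% of those not called. The Spearman correlation with the footprint change was -0.095. Enrichments by SBP-eIF4A1 and SBP-eIF4A2 had a Spearman correlation of 0.88 with each other, and the listed length, which differed between the same groups of transcripts, was not held fixed. The RNA level in naive cells was similar for the higher (median 60.3 CPM) and lower (56.5 CPM) transcripts and lower for those not called (32.2 CPM).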

How the data were processed

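Each library's deposited file listed raw whole-number counts per versioned Ensembl transcript, unscaled by the authors, and a length per transcript with no stated unit. Per the submitters' processing notes, CASAVA 1.8 and STAR 2.7.0a were used with build hg38; the counting tool and annotation are not given in the sources used here. Every library gave 26549 of the 94734 detected transcripts the same number as some other transcript, so reads appear to enter several transcripts. Identical count vectors were merged to 77343. Neighbours within 10 rows whose log2 CPM (pseudocount 0.5, over the library total) correlated at 0.9 or more over all 31 libraries were reduced to the most abundant. This left 35499, a rough approximation to 1 per locus in which several transcripts of a locus can remain. At a correlation of 0.7 the same rule left 22948.

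The counts of 6 libraries (3 groups) were tested with edgeR 4.0.16 in R 4.3.3: TMM scaling, filterByExpr (minimum count 10, minimum total 15), glmQLFit and glmQLFTest, two-sided, with Benjamini-Hochberg adjustment over all transcripts tested. DESeq2 1.42.0 was an alternative. The fit was also run on simulated counts of independent transcripts at 1 common dispersion, which do not share reads as real neighbours may. Alternatives changed scaling, filter, test, transcript set, libraries and replicate block. Shifted windows were described after seeing the values. The transcripts, lists and windows were chosen with earlier results of these data known.

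Named transcripts are the 2 largest fitted rises and 2 largest fitted falls among called transcripts with a group mean of at least 10 CPM and no overlap of libraries. The planned gene lists, cell type markers, chromosomes and the check of EIF4A1 and EIF4A2 need gene names and were not run, so genotypes rest on the labels. The labels number replicates 1 and 2, but deviations of same-numbered libraries correlated at -0.13 between naive and EIF4A2 KO, so the numbers were not taken to pair libraries.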

Additional observations from a re-analysis of the deposited data

Results flagged for a closer look

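All 4 named transcripts differed between the knockouts by a direct test of EIF4A2 KO against EIF4A1 KO footprints. The 4 had been chosen by their change from naive in the same EIF4A2 KO libraries. The values below therefore describe the chosen transcripts and are no independent test of them. ENST00000367495.4 was higher in EIF4A2 KO cells by 1.89 on the log2 scale (edgeR adjusted p = 2.51e-07), and ENST00000350763.9 by 1.96 (edgeR adjusted p = 1.77e-18). ENST00000323076.7 was at -8.07 (edgeR adjusted p = 2.77e-58). For ENST00000398606.9 the fitted value was -6.79 (edgeR adjusted p = 1.04e-06). As both EIF4A2 KO libraries had no count of it, that fitted value depends on the prior count and is no bound. In each case the EIF4A2 KO libraries did not overlap those of EIF4A1 KO.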

How the results depend on the processing

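The count of 1596 transcripts called between EIF4A2 KO and naive cells was within 1.5 times of that under other size factors, no filter, only the 4 libraries compared and a level minimum. It was 526 with the DESeq2 Wald test, which gave 8687 transcripts an adjusted p, and 741 at a log2 change of at least 0.5. Over all distinct transcripts, where neighbours of near-parallel counts are each tested, it was 4696. Leaving out 1 library gave 785 (without naive replicate 2) to 1212. The count of 4488 between the knockouts was 2265 with the Wald test, of 14458 with an adjusted p, and 13634 over all distinct transcripts. With 1 library left out it was 2659 (without EIF4A1 KO replicate 1) to 3784. Outside the shifted windows, the 1239 calls were 371 with the Wald test, 3620 over all distinct transcripts and 568 to 964 with 1 library left out. Except for the fewer or more transcripts tested or fewer libraries that these alternatives carry, the cause was not tested. The share of tested transcripts in shifted windows, 5.54%, was 6.68% with windows of 25 and 5.54% with windows of 100, both chosen after seeing the data. All 4 named transcripts kept their direction and call in every alternative that gave an adjusted p; the Wald test gave none for ENST00000367495.4 and ENST00000398606.9.

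With the replicate number as a block, 1139 transcripts were called between EIF4A2 KO and naive cells and 4014 between the knockouts. With crossed pairing, added after seeing the data, 1820 were called (860 higher, 960 lower). With neighbours reduced at a correlation of 0.7, also unplanned, 1334 of 12992 tested transcripts were called (632 higher, 702 lower).

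The groups had 2 libraries each. Transcripts of few counts carry wide errors, and the labels do not say how many clones or cultures stand for a genotype.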

Other observations

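Of the transcripts tested, 6 had no count in either EIF4A2 KO library, of which 5 were called, and 1 had at least 10 CPM in naive cells. No count in either naive library was found for 2 tested transcripts, both called, with at most 5.52 CPM in EIF4A2 KO cells.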
